A study of Homo sapiens with 32 samples.

Results

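The 9 glycolytic genes described here by their newly made and their total RNA are GPI, ALDOA, ALDOC, PGK1, ENO1, ENO2, PKM, LDHA and LDHB. They were taken by name, as enzymes of the stretch from glucose phosphate isomerase to lactate dehydrogenase. The list does not hold every gene of that stretch. TPI1, for one, is not in it, and its cluster lay below background at 5.27. A dim cluster does not show that the gene is silent. Each was read from the transcript cluster (the set of exon array probes assigned to one gene) whose only gene symbol was that gene, and where several clusters qualified the brightest on average was used. All 9 genes had such a cluster among the 21788 clusters of the array, and all 9 lay among the 14167 clusters above background.

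Glycolysis breaks glucose down to pyruvate in the cytosol, and lactate dehydrogenase turns pyruvate into lactate, which restores the NAD+ that the pathway needs. Proliferating lymphoid cells draw on it for ATP and for building blocks of nucleotides, lipids and amino acids. Several of its genes are known targets of hypoxia-inducible factor (HIF) and of MYC, and some steps are served by isozymes encoded by separate genes, here aldolase (ALDOA, ALDOC), enolase (ENO1, ENO2) and lactate dehydrogenase (LDHA, LDHB).

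The samples came from 7 human B-lymphoblastoid cell lines, which are B cells immortalised with Epstein-Barr virus and kept by a cell repository. Every culture, in both fractions, had received 200 µM of the nucleoside 4-thiouridine (4sU) for 2 h. RNA made in that time carries the label and was separated as nascent RNA; the total RNA of the same culture was measured on an array of its own. For GM07029, GM10835 and GM12813 there were 3 independent cultures each, with a technical duplicate of every GM12813 array, while GM07019, GM12812, GM12814 and GM12815 had 1 culture each. This gave 16 nascent and 16 total RNA arrays from 13 cultures. The study used the ratio of nascent to total RNA to ask how stable mRNAs are and whether that differs between people. No untreated culture was analysed here, each line stands for 1 donor, and its immortalised cells are a model of B cells in culture only. As in any bulk sample, fewer cells that express a gene and less RNA per cell cannot be told apart.

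The values are gene-level log2 intensities. Array medians lay between 7.58 and 7.92 in nascent RNA and between 6.74 and 6.95 in total RNA, so the ratio (nascent minus total, log2) was read relative to the median cluster of its culture. "Higher" and "lower" below mean past an adjusted p of 0.05 relative to that median, unless lines are compared. The B cell label was checked against its markers: 9 of 10 listed markers had a cluster of their own, all 9 lay above background, and their mean was 10.02 to 10.73 on nascent and 10.19 to 10.80 on total RNA arrays. Markers of T and NK cells averaged 5.57 to 5.80 on nascent and 5.11 to 5.47 on total RNA arrays, with 1 of 10 above the background of 6.40; for monocytes and granulocytes it was 1 of 8, and for fibroblasts and epithelia 4 of 9, among them KRT8 at 10.69. ALDOC and ENO2 are best known from brain, but neuron and glia markers averaged 5.27 to 5.51 on nascent and 4.40 to 4.68 on total RNA arrays, with 2 of 9 above background. Correlations across clusters between cultures of one line were 0.977 to 0.997 within either fraction, and 0.80 to 0.96 for the ratio. Between lines they were 0.61 to 0.90 for the ratio.

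HIF binds the core letters ACGTG or GCGTG, and MYC binds CACGTG, which holds ACGTG on both strands. The promoters of the 9 genes in RefSeq (GRCh38.p14; 250 bases before to 50 after a start, 12 entries) were therefore searched on both strands. ACGTG stood in 8 of the 12 entries (66.7%), in 6 of 9 genes, against 21.4% of all 35116 promoter entries; GCGTG stood in 7 of 12 (58.3%), in 6 of 9 genes, against 36.5%. A match describes these letters only, and says nothing of binding in these cells. The windows below, of 30 bases each on the strand of the gene, show in each entry with ACGTG the match nearest to the start for which the window lies before the start. The capitals mark ACGTG, or CACGT where it lies on the other strand. The ratios below differ widely between genes that carry the same letters, from ALDOC to PGK1. Whether the letters bear on the ratio was not tested.
GPI, chr19:34364818-34364847, + strand, 162 bases before the start: acactgcctgtaACGTGgaaggtgttcgat
ALDOA, chr16:30064089-30064118, + strand, 178 bases before the start: ccttcccctccaCACGTcaacgattctatt
ALDOA, chr16:30064374-30064403, + strand, 111 bases before the next start: ggcagggaggccACGTGatccgagtcccct
ALDOA, chr16:30065550-30065579, + strand, 198 bases before the last start: tgtggtccgagtCACGTccgaggggggtgg
ALDOC, chr17:28576906-28576935, - strand, 28 bases before the start: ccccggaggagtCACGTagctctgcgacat
PGK1, chrX:78104053-78104082, + strand, 183 bases before the start: aaacggaagccgCACGTctcactagtaccc
ENO2, chr12:6914450-6914479, + strand, 118 bases before the start: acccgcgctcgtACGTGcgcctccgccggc
LDHA, chr11:18394478-18394507, + strand, 73 bases before the start: cgtgggttcccgCACGTccgccggcccccc

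Of the 9 genes, 8 had less nascent RNA relative to total RNA than the median cluster, and the remaining one, PGK1, varied around it. The 8 lower genes were below 0 in 7 of 7 lines, and 7 of them were at least 2-fold lower. ALDOC was the lowest with a ratio of -2.01 ± 0.21 (SD, n = 7 lines), followed by ENO2 at -1.66 ± 0.15, GPI at -1.63 ± 0.17, PKM at -1.40 ± 0.09, LDHB at -1.35 ± 0.14, ENO1 at -1.25 ± 0.16, LDHA at -1.07 ± 0.14 and ALDOA at -0.60 ± 0.20. Among all clusters tested, 31.7% were lower, 5.93% were lower by at least 2-fold, and 24.9% were lower and below 0 in all 7 lines. The median ratio of the 9 genes was -1.35, against -0.01 for all clusters tested. Without the centring the median of the 9 was -0.57 and 1 gene, ALDOC, was at least 2-fold lower. With the trend of the ratio on signal removed, described below, these were -0.79 and 4 genes. The share of all clusters at least 2-fold lower was not counted in either of these settings. Without the centring, ALDOA stood at 0.18 and did not pass (limma, Benjamini-Hochberg adjusted p = 0.0782), PGK1 was higher (0.79), and the other 7 stayed lower.

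**Figure D1:**
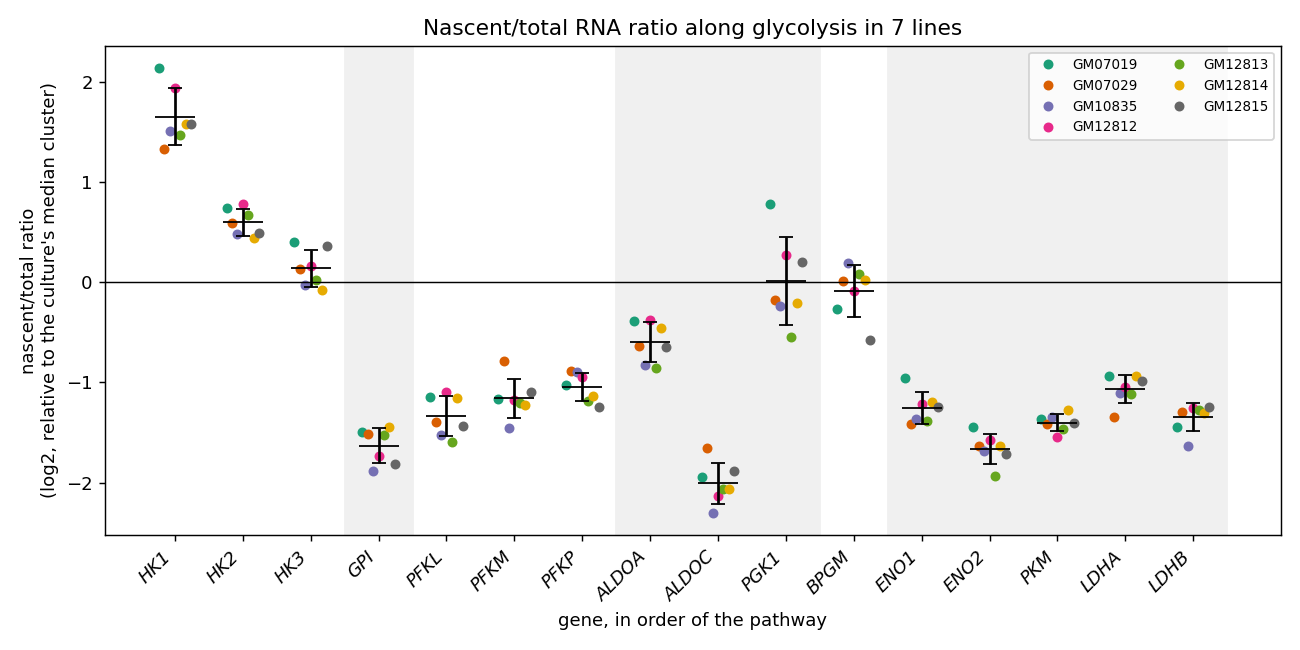
Nascent/total RNA ratio (y axis, log2, relative to the culture's median cluster) of 16 glycolytic genes in pathway order (x axis), with 1 coloured point per line, the mean of 7 lines as a horizontal bar and the SD as whiskers; the 9 genes described here are shaded grey. ALDOC lies lowest at -2.01, PGK1 spreads around 0 from -0.55 to 0.79, and HK1 lies highest at 1.65.

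GPI interconverts glucose 6-phosphate and fructose 6-phosphate. Its log2 intensity over the 7 lines was 9.41 at the lowest, 9.92 at the median and 10.15 at the highest in nascent RNA, against 10.43, 10.64 and 11.20 in total RNA. The nascent values all lay under the total values, although nascent arrays had the higher medians. Here and for the genes below, overlap between fractions is read from values as deposited, without allowing for those medians. Its ratio was between -1.88 (GM10835) and -1.45 (GM12814), 3.10-fold lower than the median cluster (limma, Benjamini-Hochberg adjusted p = 4.83e-07). Of the 14167 clusters tested, 126 had a lower mean ratio.

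Aldolase splits fructose 1,6-bisphosphate into a pair of triose phosphates. ALDOA, the form known from muscle and most other tissues, had intensities of 8.92, 9.30 and 9.67 (lowest, median, highest) in nascent RNA and 8.79, 9.09 and 9.57 in total RNA. These ranges overlap almost entirely. Its ratio lay between -0.85 (GM12813) and -0.38 (GM12812), 1.51-fold lower than the median cluster (limma, Benjamini-Hochberg adjusted p = 7.03e-05). ALDOC, the form known from brain, had 8.97, 9.10 and 9.65 in nascent RNA and 9.91, 10.37 and 10.98 in total RNA, with no overlap. Its ratio lay between -2.30 (GM10835) and -1.65 (GM07029), 4.02-fold lower (limma, Benjamini-Hochberg adjusted p = 4.83e-07), and 30 clusters had a lower mean.

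PGK1, phosphoglycerate kinase, makes the first ATP that the pathway pays back. Its intensities were 12.42, 12.53 and 12.88 in nascent RNA and 11.17, 11.85 and 12.29 in total RNA. As deposited, every nascent value exceeded every total value, but nascent arrays also had the higher medians. The ratio was 0.79 in GM07019, -0.18 in GM07029, -0.24 in GM10835, 0.27 in GM12812, -0.55 in GM12813, -0.20 in GM12814 and 0.20 in GM12815. The 3 positive values were those of lines grown as 1 culture each, and 4 of 7 lines were below 0. Its mean of 0.01 ± 0.44 (SD, n = 7 lines; 95% interval -0.29 to 0.31) did not pass (limma, Benjamini-Hochberg adjusted p = 0.939). Its spread between lines was the widest of the 9 genes, and came with a total RNA range of 1.13 (log2) beside a nascent RNA range of 0.47.

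Enolase makes phosphoenolpyruvate. ENO1, the widely expressed form, had 12.33, 12.67 and 12.95 in nascent RNA and 12.93, 13.09 and 13.48 in total RNA, which touch only at their ends. Its ratio lay between -1.41 (GM07029) and -0.96 (GM07019), 2.39-fold lower than the median cluster (limma, Benjamini-Hochberg adjusted p = 5.46e-07). ENO2, the form named after neurons, had 8.50, 9.50 and 9.90 in nascent RNA and 9.56, 10.43 and 10.75 in total RNA. These were the widest nascent and total ranges of the 9 genes in fold terms, 2.65-fold and 2.28-fold. Yet its ratio kept between -1.93 (GM12813) and -1.44 (GM07019), 3.16-fold lower (limma, Benjamini-Hochberg adjusted p = 4.83e-07).

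PKM, pyruvate kinase, makes pyruvate and ATP; its M1 and M2 splice forms share this one gene-level value. It had 10.32, 10.66 and 11.00 in nascent RNA and 11.08, 11.33 and 11.51 in total RNA, without overlap. Its ratio was the steadiest of the 9, between -1.54 (GM12812) and -1.28 (GM12814), 2.64-fold lower than the median cluster (limma, Benjamini-Hochberg adjusted p = 4.83e-07).

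Lactate dehydrogenase is a tetramer of A and B subunits. LDHA, the subunit that prevails in muscle, had 13.06, 13.27 and 13.51 in nascent RNA and 13.47, 13.50 and 13.78 in total RNA, which overlap at their ends. Its ratio lay between -1.34 (GM07029) and -0.93 (GM12814), 2.09-fold lower than the median cluster (limma, Benjamini-Hochberg adjusted p = 8.23e-07). LDHB, the subunit that prevails in heart, had 11.51, 11.59 and 11.86 in nascent RNA and 11.98, 12.27 and 12.63 in total RNA, with no overlap. Its ratio lay between -1.63 (GM10835) and -1.24 (GM12815), 2.54-fold lower (limma, Benjamini-Hochberg adjusted p = 4.88e-07).

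**Figure D2:**
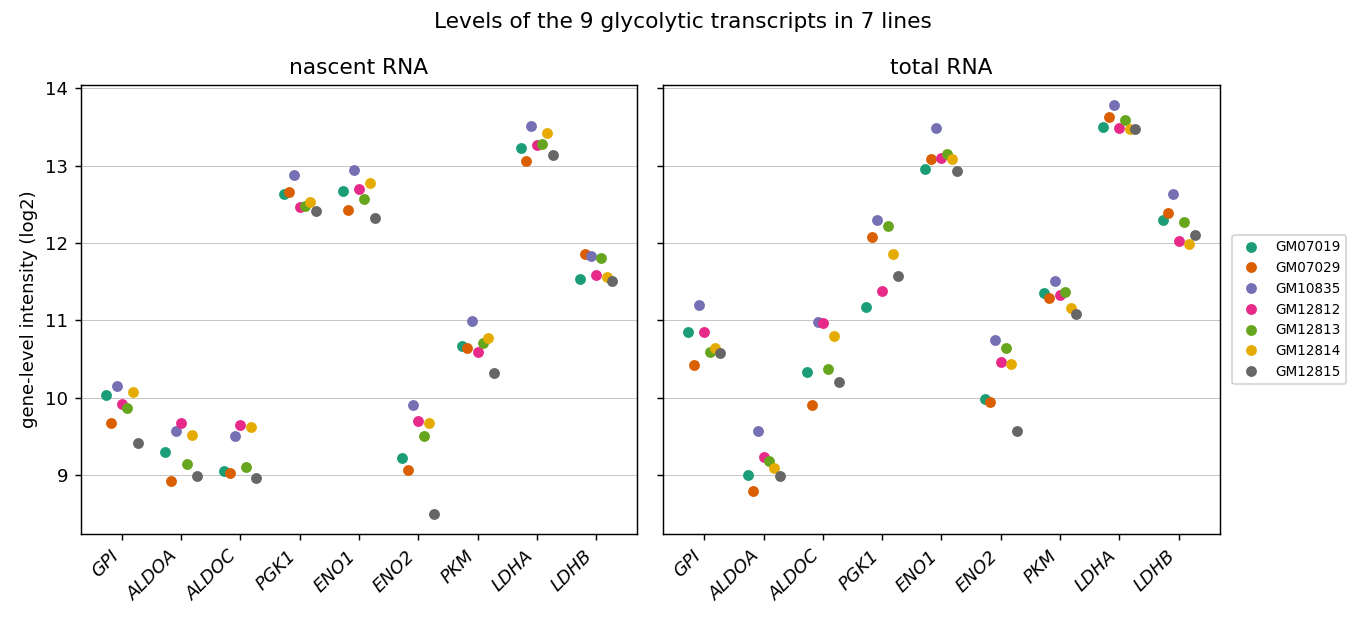
Gene-level intensity (y axis, log2) of the 9 genes (x axis) in nascent RNA (left) and total RNA (right), 1 coloured point per line (mean of its cultures). With values as deposited, GM10835 is highest for all 9 genes in total RNA, and GM12815 is lowest for 7 of 9 in nascent RNA. Array medians differ between lines, and heights are not comparable between genes. The share of all clusters with the same line highest or lowest was not counted.

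In order of the ratio, ALDOC lay under ENO2 in 7 of 7 lines, by -0.35 ± 0.24 (SD, n = 7). ENO2 and GPI did not differ beyond their spread, with -0.03 ± 0.22 and ENO2 lower in 3 of 7 lines. GPI lay under PKM in 7 of 7 lines (-0.23 ± 0.17). PKM and LDHB (-0.05 ± 0.20) and LDHB and ENO1 (-0.09 ± 0.22) did not differ beyond their spread, with the lower mean lower in 4 of 7 lines for each pair. The top of the order separated in 7 of 7 lines at each step, by -0.19 ± 0.10 from ENO1 to LDHA, -0.47 ± 0.18 from LDHA to ALDOA and -0.61 ± 0.32 from ALDOA to PGK1. With the trend of the ratio on signal removed, described below, the order of ENO1, LDHA and ALDOA changed. ALDOA then stood at -0.56, ENO1 at -0.51 and LDHA at -0.21.

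The isozymes of each step differed in the ratio within the same cultures. ALDOC was 2.66-fold lower than ALDOA (difference -1.41, 95% interval -1.65 to -1.17), with differences between -1.75 and -1.02 in the 7 lines. ENO2 was lower than ENO1 in 7 of 7 lines, with a difference of -0.41 (95% interval -0.51 to -0.30). For both pairs the exact sign-flip permutation test over 7 lines gave p = 0.0156, two-sided, the smallest it can give, and 0.0234 after Benjamini-Hochberg adjustment over 3 pairs. LDHB was lower than LDHA in 6 of 7 lines, with a difference of -0.28 (95% interval -0.47 to -0.09; exact sign-flip permutation p = 0.0313, adjusted 0.0313). Without any one of GM07019, GM10835, GM12812, GM12813, GM12814 or GM12815 the difference was -0.30 to -0.24, with an adjusted exact permutation p of 0.0625, the smallest that 6 lines can give when 1 of them, GM07029 at 0.05, has the opposite sign.

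Over all clusters the ratio fell with signal: its median was 0.05 between intensities of 8 and 9, -0.24 between 10 and 11, -0.42 between 11 and 12, -0.66 between 12 and 13 and -0.75 between 13 and 15. The 9 genes spanned mean intensities of 9.21 (ALDOA) to 13.42 (LDHA). With this trend removed within each culture, ALDOC stood at -1.86, ENO2 at -1.52, GPI at -1.40, PKM at -1.04, LDHB at -0.79, ALDOA at -0.56, ENO1 at -0.51 and LDHA at -0.21, and all 8 were still lower. LDHA and ENO1, the brightest, moved most: LDHA passed with an adjusted p of 0.0306 (limma, Benjamini-Hochberg). PGK1 then stood at 0.63 ± 0.40 (SD, n = 7) and was higher (limma, Benjamini-Hochberg adjusted p = 0.00177). The differences between isozymes were -1.30 for aldolase, -1.01 for enolase and -0.57 for lactate dehydrogenase with the trend removed. What produces the trend was not tested.

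**Figure D3:**
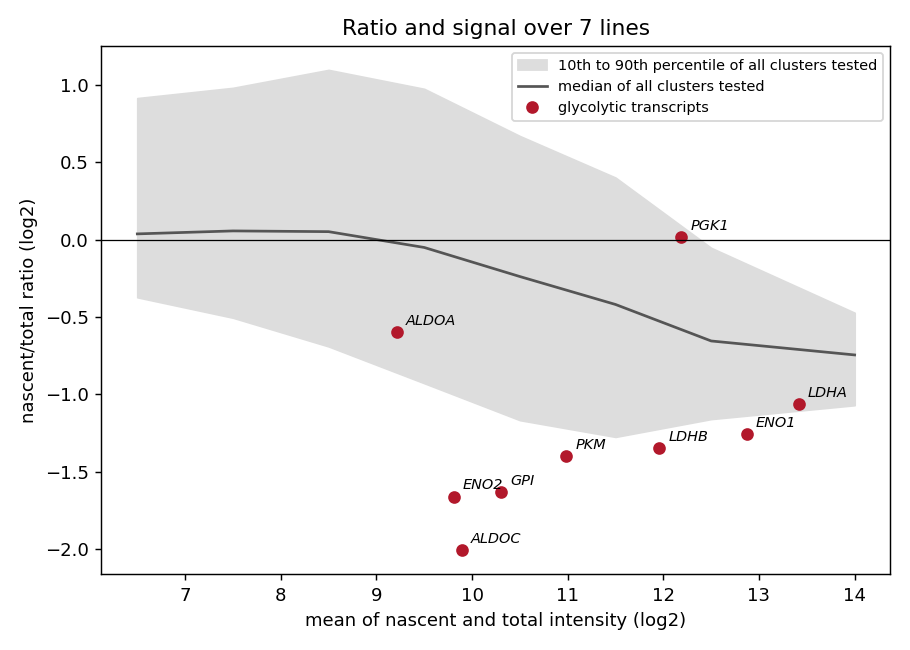
Nascent/total ratio (y axis, log2) against the mean of nascent and total intensity (x axis, log2), both as means of 7 lines; the line and the grey band give the median and the 10th to 90th percentile of all clusters tested in bins of intensity. ALDOC, ENO2, GPI, PKM, LDHB and ENO1 lie under the band, LDHA and ALDOA within it, and PGK1 at its upper edge.

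Of the rest of glycolysis, 9 listed genes had a cluster of their own and 7 of these were above background. GAPDH and PGAM1 had no cluster with a single symbol, and the clusters of TPI1 and HKDC1 lay below background. The phosphofructokinases, which commit sugar to the pathway, were all lower: PFKL at -1.33 ± 0.20, PFKM at -1.16 ± 0.20 and PFKP at -1.04 ± 0.14 (SD, n = 7 lines). The hexokinases, which trap glucose in the cell, lay on the other side: HK1 at 1.65 ± 0.28 and HK2 at 0.60 ± 0.13 were higher in 7 of 7 lines. HK3 at 0.14 ± 0.19 and BPGM, which makes 2,3-bisphosphoglycerate, at -0.09 ± 0.26 did not pass. The median of these 7 was -0.09.

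Of glucose and lactate transport and control, 4 of 7 tested genes were lower, 2 were higher and 1 did not pass; the largest were PFKFB4, an enzyme that sets fructose 2,6-bisphosphate, at -1.90, and PDK1 and PDK3, kinases that switch off pyruvate dehydrogenase, at -1.71 and -1.57. All 6 tested genes of the pentose phosphate pathway, which branches off at glucose 6-phosphate, were lower, with the phosphogluconate dehydrogenase PGD at -1.0, the ribose phosphate isomerase RPIA at -0.91, PRPS2, which activates ribose phosphate for nucleotide synthesis, at -0.79 and a median of -0.78. Of pyruvate entry into mitochondria, 5 of 8 were lower and 2 higher, led by MPC2, a subunit of the mitochondrial pyruvate carrier, at -1.08, PDP1, a phosphatase that reactivates pyruvate dehydrogenase, at 1.00 and its target's subunit DLAT at -0.86. Other hypoxia-inducible genes, a list that also held genes of HIF subunits, had 8 of 17 lower and 5 higher, with a median of -0.18. The largest were ERO1A, an oxidase of the endoplasmic reticulum, at -2.03, and P4HA1 and P4HA2, subunits of collagen prolyl hydroxylase, at -1.32 and -1.04. Isozymes known from other tissues were above background in 4 of 8, and of these only PKLR was lower (-0.21); PGK2 and LDHC, both known from testis, lay below background. B cell markers had 8 of 9 lower and 1 higher, with a median of -1.19 and FCER2 at -2.04, CD79A at -1.97 and MS4A1 at -1.96 as the largest. Of the tested markers of other cell types, COL1A1, a collagen chain, was higher (0.29), and none of the other tested genes in those 4 lists passed.

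The 3 lines with repeat cultures were compared next, which asks whether levels and ratios differ between lines by more than between cultures. In nascent RNA, 8 of the 9 genes differed between GM07029, GM10835 and GM12813, all but LDHB, where 56.7% of all clusters did. In total RNA, 6 of 9 differed (GPI, ALDOA, ALDOC, ENO1, ENO2 and LDHB), against 56.3% of all clusters. In the ratio only ALDOC differed, 1 of 9, against 25.4%. That count was 3 without GM07029 replicate 1 (ALDOC, PGK1 and LDHB) and with quantile normalization (ALDOC, PGK1 and LDHA), and 0 without centring or without the filter on dim clusters. GM10835 held the highest level of the 3 lines for each gene and fraction that differed. GM10835's nascent arrays also had the highest medians of all, 7.89 to 7.92, and the median cluster stood at -0.16 in nascent and -0.10 in total RNA for GM07029 minus GM10835. Differences are therefore also given with each array centred on its own median over the clusters tested. These medians differed by more than the median cluster did in nascent RNA (-0.25 for GM07029 minus GM10835) and by -0.08 in total RNA, and the centred values below move by those amounts.

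ALDOC showed the largest difference in total RNA. Its 3 cultures of GM07029 had total RNA intensities of 9.79, 9.89 and 10.04, those of GM10835 11.00, 11.00 and 10.94, and those of GM12813 10.55, 10.27 and 10.29. No 2 lines overlapped. GM07029 was lower than GM10835 by 1.07 (difference -1.07 ± 0.11 SE, 2.10-fold, limma, Benjamini-Hochberg adjusted p = 2.18e-05; -0.99 with arrays centred) and lower than GM12813 (-0.46, adjusted p = 0.0119). In nascent RNA the cultures had 9.00, 9.03 and 9.04 in GM07029, 9.50, 9.48 and 9.55 in GM10835, and 9.14, 9.03 and 9.14 in GM12813. GM07029 was lower than GM10835 there by less (-0.49 ± 0.07 SE, adjusted p = 9.65e-05; -0.24 with arrays centred), and overlapped with GM12813.

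The ALDOC ratio was thus -1.59, -1.64 and -1.72 in the cultures of GM07029, -2.31, -2.37 and -2.22 in those of GM10835, and -2.15, -2.02 and -2.03 in those of GM12813. The 3 lines did not overlap (limma's moderated F test, Benjamini-Hochberg adjusted p = 0.00904). GM07029 was higher than GM10835 by 0.65 ± 0.12 (SE; adjusted p = 0.00833, where 6.23% of all clusters were higher). The differences of 0.42 from GM07029 to GM12813 (adjusted p = 0.0687) and -0.23 from GM10835 to GM12813 (adjusted p = 0.202) did not pass. The F test of ALDOC also missed the threshold without the centring (adjusted p = 0.0506) and without the filter on dim clusters (0.0625).

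**Figure D4:**
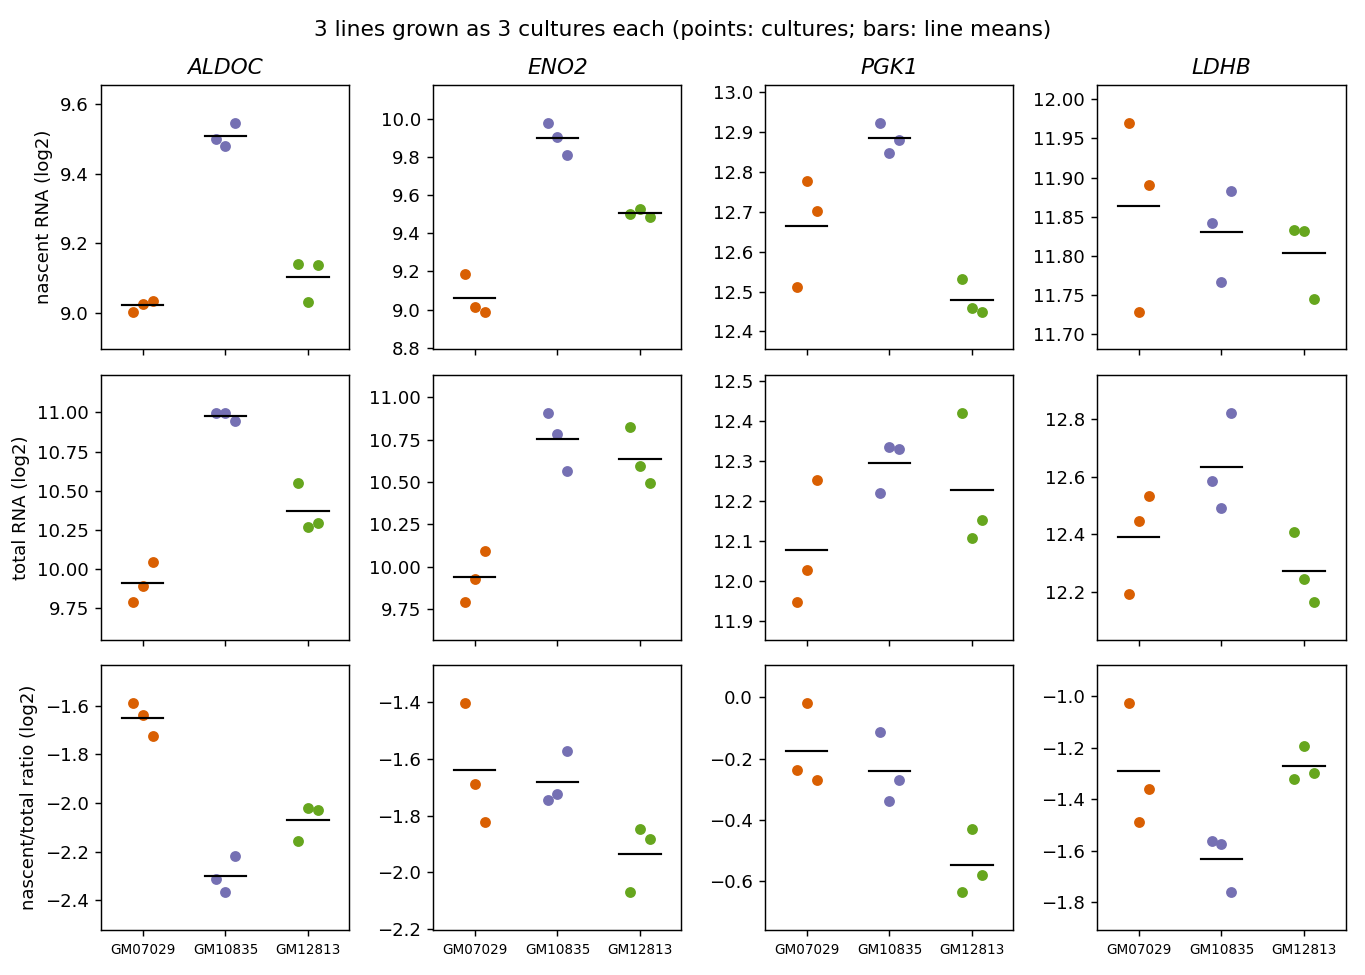
Nascent RNA, total RNA (both log2 intensity) and nascent/total ratio (log2), from top to bottom, of ALDOC, ENO2, PGK1 and LDHB in the 3 lines with 3 cultures each; points are cultures, bars are line means, and each panel has its own y axis. The 3 lines are apart for ALDOC in the ratio and for ENO2 in nascent RNA, while the LDHB cultures overlap in nascent RNA.

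ENO2 had the largest difference in nascent RNA. Its cultures had 9.19, 9.01 and 8.99 in GM07029, 9.98, 9.91 and 9.81 in GM10835, and 9.50, 9.53 and 9.49 in GM12813, with no overlap. GM07029 was lower than GM10835 (-0.84 ± 0.08 SE, 1.79-fold, limma, Benjamini-Hochberg adjusted p = 5.58e-06; -0.59 with arrays centred) and lower than GM12813 (-0.44, adjusted p = 0.00257). In total RNA it had 9.79, 9.93 and 10.09 in GM07029, 10.91, 10.78 and 10.57 in GM10835, and 10.83, 10.60 and 10.49 in GM12813. GM07029 was the low line (-0.81 against GM10835, adjusted p = 4.11e-04, and -0.70 against GM12813, adjusted p = 0.00375), while the other lines overlapped. The ratios of -1.64 ± 0.21 for GM07029, -1.68 ± 0.09 for GM10835 and -1.93 ± 0.12 for GM12813 (SD, n = 3 cultures) did not differ beyond the threshold (limma's moderated F test, Benjamini-Hochberg adjusted p = 0.221).

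GPI, ALDOA and ENO1 had GM10835 on top in both fractions, as had ALDOC and ENO2 and, by line means, PGK1, PKM and LDHA. With arrays centred, GM10835 minus GM12813 did not pass for GPI in nascent RNA (0.10, limma, Benjamini-Hochberg adjusted p = 0.182). Nor did it for ENO1, with 0.20 in total RNA (adjusted p = 0.108) and 0.20 in nascent RNA (adjusted p = 0.0549). GPI's cultures had 10.22, 10.46 and 10.60 of total RNA in GM07029, 11.24, 11.12 and 11.25 in GM10835, and 10.80, 10.61 and 10.37 in GM12813. GM10835 stood clear of the others, with GM07029 lower by 0.78 (difference -0.78, limma, Benjamini-Hochberg adjusted p = 6.27e-04; -0.69 with arrays centred). In nascent RNA GPI averaged 9.67 ± 0.13 in GM07029, 10.15 ± 0.04 in GM10835 and 9.86 ± 0.03 in GM12813 (SD, n = 3 cultures; GM07029 minus GM10835 -0.48, adjusted p = 2.36e-04; -0.23 with arrays centred).

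ALDOA had total RNA intensities of 8.70, 8.83 and 8.82 in GM07029, 9.61, 9.53 and 9.57 in GM10835, and 9.23, 9.13 and 9.20 in GM12813. All 3 lines were apart, and GM07029 was lower than GM10835 by 0.78 (difference -0.78, limma, Benjamini-Hochberg adjusted p = 7.09e-05; -0.70 with arrays centred). Its nascent means were in the same order, 8.92 ± 0.06, 9.57 ± 0.11 and 9.14 ± 0.05 (SD, n = 3 cultures) in GM07029, GM10835 and GM12813. ENO1 had 13.14, 13.03 and 13.08 of total RNA in GM07029, 13.47, 13.48 and 13.50 in GM10835, and 13.22, 13.11 and 13.13 in GM12813. GM10835 was apart, and GM07029 was lower by 0.40 (difference -0.40, adjusted p = 1.59e-04; -0.32 with arrays centred). ENO1's ratio showed the smallest spread of the 9 genes over these lines, where the line means were -1.41 (GM07029), -1.36 (GM10835) and -1.39 (GM12813), with an adjusted p of 0.913.

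For PGK1, PKM and LDHA the lines differed in nascent RNA as deposited, but none of these F tests passed with arrays centred (adjusted p = 0.133, 0.465 and 0.351 in that order). PGK1 had nascent RNA intensities of 12.51, 12.78 and 12.70 in GM07029, 12.92, 12.85 and 12.88 in GM10835, and 12.53, 12.46 and 12.45 in GM12813. GM10835 was above the other lines, yet GM07029 minus GM10835 was -0.22 as deposited (adjusted p = 0.0130) and 0.03 with arrays centred (adjusted p = 0.821); set against the median cluster's -0.16 in place of the medians' -0.25, it would still lie below. Its total RNA did not differ (adjusted p = 0.187), and its ratios of -0.18 ± 0.14 (GM07029), -0.24 ± 0.11 (GM10835) and -0.55 ± 0.11 (GM12813) missed the threshold (adjusted p = 0.0624). PKM's nascent means were 10.64 ± 0.09 in GM07029, 11.00 ± 0.14 in GM10835 and 10.71 ± 0.04 in GM12813, and LDHA's were 13.06 ± 0.18, 13.51 ± 0.03 and 13.28 ± 0.04 in the same lines (SD, n = 3 cultures). Neither differed in total RNA (adjusted p = 0.143 for PKM and 0.0845 for LDHA).

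LDHB behaved differently from the rest of the 9 in its calls. Its nascent RNA had 11.97, 11.73 and 11.89 in GM07029, 11.84, 11.77 and 11.88 in GM10835, and 11.83, 11.83 and 11.75 in GM12813. The lines overlapped (limma's moderated F test, Benjamini-Hochberg adjusted p = 0.736), but with arrays centred GM07029 was higher than GM10835 by 0.28 (adjusted p of the F test 0.0111). Its total RNA had 12.19, 12.44 and 12.53 in GM07029, 12.59, 12.49 and 12.82 in GM10835, and 12.41, 12.25 and 12.17 in GM12813. GM10835 was higher than GM12813 by 0.36 (adjusted p = 0.0246), but the F test passed narrowly (adjusted p = 0.0421) and missed with arrays centred (0.192) and without GM07029 replicate 2 (0.0546), GM10835 replicate 1 (0.0792), GM10835 replicate 3 (0.166), GM12813 replicate 2 (0.0792) or GM12813 replicate 3 (0.0814).

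Counted by pair of lines, GM07029 was lower than GM10835 in 8 of 9 genes in nascent RNA, where 41.6% of all clusters were lower, and in 5 of 9 in total RNA, where 29.0% were; with arrays centred, PGK1 (0.03), PKM and LDHA no longer passed in nascent RNA, and LDHB was higher there. GM07029 was lower than GM12813 only for ENO2 in nascent RNA (12.7% of all clusters) and for ALDOA, ALDOC and ENO2 in total RNA (10.8%). GM10835 was higher than GM12813 in 8 of 9 genes in nascent RNA (32.4%) and in 5 of 9 in total RNA (25.4%). With arrays centred this held in nascent RNA for ALDOA, ALDOC and ENO2, and in total RNA for GPI, ALDOA and ALDOC. The median difference of the 9 genes for GM07029 minus GM10835 was -0.48 in nascent and -0.40 in total RNA, against -0.16 and -0.10 for all clusters. For the ratio it was 0.07, against -0.03. Over all 7 lines, with values as deposited, GM10835 had the highest total RNA for 9 of 9 genes and the highest nascent RNA for 6 of 9. Over the clusters tested, GM10835 also had the highest nascent array median (9.07, mean of its cultures). GM12815 had the lowest median in both fractions (8.49 in nascent and 7.70 in total RNA). GM12815, whose nascent array had the lowest median (7.58), had the lowest nascent RNA for 7 of 9. Levels with arrays centred were compared only between GM07029, GM10835 and GM12813. The orders over all 7 lines were not read with arrays centred. How far array medians account for these orders was therefore not tested. How often the same lines stood at the ends among all clusters tested was not counted, so these counts are not particular to the 9 genes.

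The precision of a ratio can be read from repeats. The SD between cultures of a line was 0.02 (ENO1 in GM12813) to 0.28 (GPI in GM07029). Technical duplicates of GM12813 differed in the ratio by 0.01 at the least and 0.31 at the most, both for GPI. For PKM the SD between the 7 lines, 0.09, was under the SD between cultures in each of the 3 lines (0.11 to 0.16). For PGK1 the SD between lines, 0.44, was over 3 times each of them (0.11 to 0.14).

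By likeness of pattern, measured as Pearson's r with the mean of the 9 genes over 13 cultures, the clusters closest in the ratio were C1RL-AS1 (0.91), SPG7 (0.90), EVL (0.89), PALD1 (0.88) and ACOT8 (0.87). In total RNA they were MMAB (0.98), MAGED2 (0.98), GADD45B (0.96), PGPEP1 (0.96) and TRPT1 (0.95). These are descriptions without a test, since 9 of the 13 cultures come from 3 lines and all genes were read on the same arrays.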

How the data were processed

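Total and 4sU-labelled nascent RNA of 13 cultures had been hybridised to 32 exon arrays. The authors deposited log2 gene-level intensities of 21788 transcript clusters. Affymetrix Power Tools and genome build hg18 are named per the submitters' processing notes; the summary algorithm, background correction, tool version and any joint normalization of both fractions were not given in the sources used here. Of the clusters, 14405 had 1 platform gene symbol, 2365 several and 5018 none, and 14377 symbols were updated by gene ID through RefSeq.

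Technical duplicates were averaged. The background level, 6.40, was the 95th percentile over 216 olfactory receptor clusters of their means, and the 14167 clusters with a mean above it were tested. The ratio, nascent minus total, was centred on each culture's median. With limma 3.58.1 in R 4.3.3 (lmFit, eBayes with trend, two-sided), 1 mean per line was tested against 0 over 7 lines, and the 9 cultures of 3 lines were compared by a moderated F test and 3 contrasts, with total and nascent values as deposited. Benjamini-Hochberg adjustment ran over all clusters tested, at 0.05. Isozymes were compared by an exact sign-flip permutation test. The limma tests over 7 lines and between 3 lines were also run on simulated ratios with independent noise. The background filter, the centring and the removal of the trend with signal were not simulated. Precision is limited by the number of lines and cultures.

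All 9 genes were named whatever their values. From each other list the 3 genes with the largest absolute ratio past the threshold were named (all tested genes of the rest of glycolysis), and the 5 clusters of most like pattern. PGK2, LDHC and KRT8 were named after their values were seen. The members and lists were chosen with earlier results of these data known. Alternatives were other centring (arrays on their median over the clusters tested), quantile normalization, the trend with signal, filters, single arrays, cultures as units, unpaired fractions, a replicate block, other variance models and leaving out each line or culture.

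Replicate numbers of the 3 lines mark independent cultures. Cultures of the same number in different lines were not taken as pairs. RefSeq promoters are on GRCh38.p14, and no coordinates of the array's build were used.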

Additional observations from a re-analysis of the deposited data

Results flagged for a closer look

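With values as deposited, not centred on array medians, ENO1 total RNA in GM10835 stood apart from the other 6 lines: 13.48, against 12.93 to 13.15, a gap of 0.596 of the whole range. It was the only one of 27 groups of 7 lines checked (9 genes, 3 measures) in which an end value lay that far out, and chance alone does so in about 1 in 20 groups.

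The ALDOC nascent/total ratio differed between GM07029, GM10835 and GM12813 (limma's moderated F test, Benjamini-Hochberg adjusted p = 0.00904). It was the only one of the 9 ratios that did, where 25.4% of all clusters did. The same test of ALDOC missed the threshold without the centring (adjusted p = 0.0506) and without the filter on dim clusters (0.0625).

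Clusters that carry ENO1 together with another symbol were not used above. The cluster shared by EDARADD and ENO1 lay 0.381 (log2) above background, with a nascent/total ratio of -0.13. The cluster shared by TMEM11 and ENO1 lay 1.18 above background, with a ratio of 0.13. Which gene these signals come from was not tested.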

How the results depend on the processing

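Of the results past the threshold in the main setting, 2 changed direction. ALDOA stood at 0.18 over 7 lines without centring (limma, Benjamini-Hochberg adjusted p = 0.0782), and PGK1 nascent RNA for GM07029 minus GM10835 stood at 0.0312 with arrays centred. The cause was not tested beyond that scaling. Differences that had not passed changed sign as well, such as ENO2 total RNA for GM10835 minus GM12813 (0.11 as deposited, -0.02 with arrays centred).

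Over 7 lines, 8991 clusters were called, 49.98% of them lower. That share was 6.14% without centring and 62.0% with fractions unpaired (no replicate block, 7494 clusters, 8 of the 9 genes lower). The unpaired setting also moved the ratios themselves, with a median of the 9 genes of -1.49 and PGK1 at -0.13. Unpairing alone does not move a mean, so the zero of the ratio had shifted too. The 62.0% therefore does not show an effect of unpairing alone. The 9 genes held 1 higher gene, PGK1, without centring and likewise 1 once the dependence on signal had been taken out, against 0 otherwise, and their median ratio was -0.57 and -0.79 there, against -1.35. Leaving out each line in turn left 8320 to 8952 clusters called, 49.6% to 49.9% of them lower, 8 of 9 genes lower, 0 higher and a median of -1.37 to -1.30.

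Between 3 lines, 3595 clusters differed in the ratio, but 2012 without the filter and 2142 with the first array of each GM12813 culture only; the cause was not tested. Leaving out each culture in turn gave 1808 to 5065 (1808 to 2350 without GM10835 replicate 1, 2 or 3 or GM12813 replicate 2 or 3), with 1 to 3 of the 9 genes: without GM07029 replicate 1 these were ALDOC, PGK1 and LDHB. The count of the 9 genes was 0 without centring, 0 without the filter, 3 with quantile normalization (ALDOC, PGK1 and LDHA) and 2 with the variance trend on mean signal (ALDOC and PGK1), a setting chosen after seeing the data. For total RNA leaving out cultures gave 6589 to 8029 clusters and 5 to 7 of the 9 genes; for nascent RNA 7094 to 9163 clusters and 8 of 9. Isozyme differences without each line ran from -1.48 to -1.35 (aldolase), -0.44 to -0.38 (enolase) and -0.34 to -0.24 (lactate dehydrogenase).

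With the replicate number as a block, 2458 clusters differed in the ratio, 7011 in total and 7442 in nascent RNA, with 1, 5 and 8 of the 9 genes; LDHB in total RNA was lost (adjusted p = 0.0571). Same-numbered cultures of different lines deviated with correlations of -0.46 to 0.39 in nascent RNA, -0.43 to 0.11 in total RNA and -0.43 to 0.20 in the ratio, over 0.1 in 3, 2 and 2 of 9 pairs. No consistent pairing by number was seen, but so few cultures per line cannot exclude one.

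Limits: with 4 lines grown once, their line values carry the error of 1 culture. The ratio has no absolute zero, since array medians differ between fractions. Bright clusters have lower ratios. Whether the ratio depends on transcript length or number of uridines was not tested.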
